A study of Rattus norvegicus with 2 samples.

Results

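The rat microRNAs (miRNAs) rno-miR-134, rno-miR-329, rno-miR-379, rno-miR-411, rno-miR-495 and rno-miR-543 are made from the miR-379/410 cluster, a run of miRNA genes on rat chromosome 6. They were chosen by name among the array's probes, as 6 miRNAs of this cluster outside the miR-154 and miR-376 seed families. Names ending in an asterisk were left out. The 6 are not a full list of such cluster miRNAs. The prefix rno- is left out below. They make up 6 of the 349 miRNA probes. Small RNA from the nucleus accumbens (NAc), core and shell together, was measured on 1-colour arrays in which the brightness of a Cy3-stained spot follows the RNA bound to its probe. The vehicle group was given 500 ul saline and the alcohol group alcohol at 1 g/kg, both ip bid, and the tissue was taken after 7 days. All animals were adult male Sprague-Dawley rats of 150-180 g, 18 in the whole experiment. The data hold 1 array for each group, and whether RNA of several rats was combined for an array is not given in the sources used here. Within these array data no difference below therefore has a check across rats or a test. For raw densities the errors are SDs over the 9 repeat spots of a probe on an array. For log2 ratios they are SDs over the 9 differences between spots at the same position on both arrays. Both give the spread of single spots within the arrays, not the error of a mean.

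The miR-379/410 cluster is imprinted and is expressed from the maternal chromosome, mostly in brain. In neurons its transcription is raised by synaptic activity through the transcription factor Mef2. The miRNAs are cut from one long transcript, so their mature levels reflect transcription together with the processing and stability of each RNA. miR-134 is the best known member. It holds back the growth of dendritic spines through Limk1, a kinase of the actin cytoskeleton, and takes part in dendrite outgrowth through the RNA-binding protein Pumilio2.

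The sequences are given because the seed (bases 2 to 8, in capitals) decides which mRNAs a miRNA pairs with, and because the arm of the hairpin that a probe reads is not always the one its name now carries. The first 6 are the target sequences listed in the deposited array data, 5′ to 3′, followed by the targets of the 2 asterisk-named probes from the same hairpins.
miR-379: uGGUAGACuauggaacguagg
miR-411: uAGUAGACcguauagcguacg
miR-329: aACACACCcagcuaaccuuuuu
miR-543: aAGUUGCCcgcguguuuuucgc
miR-495: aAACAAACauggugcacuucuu
miR-134: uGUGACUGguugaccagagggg
miR-379*: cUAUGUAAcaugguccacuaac
miR-543*: aAACAUUCgcggugcacuucu

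No other miRNA probe on the array shared bases 2 to 8 with any of the 6. The closest seeds among them were those of miR-379 and miR-411, which differ at 1 of the 7 seed bases (G2A, counted from 1 at the 5′ end with the miR-379 base first). Over the 21 bases of both, 14 are identical, with U9C, A10G, G12A, G13U, A15G and G20C outside the seed. miR-495 and the miR-543* target are closer over their length but not in the seed: 17 of 21 bases are identical, the differences are A6U, A7U, A9G and U10C, and an unbroken run of 11 bases is shared. By edit distance the nearest target to miR-134 among the other 348 probes was 9 changes away (miR-187 and miR-542-3p) and the nearest to miR-329 was 8 away (miR-377). For miR-379 it was 7 away (miR-380 and miR-411), and miR-495 and miR-543* stood 5 changes from each other.

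In the RefSeq annotation of the rat assembly GRCr8 all 6 lie on the plus strand of chromosome 6. From the start of the Mir379 hairpin, the mature sequence of miR-379 begins at 0.015 kb (chr6:134543460-134543480), miR-411 at 1.16 kb (chr6:134544604-134544624) and miR-329 at 4.53 kb (chr6:134547973-134547994). The miR-543 target begins at 8.97 kb (chr6:134552418-134552439), miR-495 at 10.7 kb (chr6:134554103-134554124) and miR-134 at 26.9 kb (chr6:134570320-134570341). The first 5 fall within the long noncoding RNA gene LOC102555254 and miR-134 within LOC120103623. The gene table used gives no exons of these genes, so exonic and intronic positions are not given here. The cluster runs over 36.4 kb to the end of Mir410.

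The probe named miR-543 reads the arm that RefSeq names miR-543-5p, and the probe named miR-543* reads the arm named miR-543-3p. Both are marked in capitals in the RefSeq hairpin of Mir543, 80 bases at chr6:134552405-134552484, miR-543 first. The hairpin of Mir379, 85 bases at chr6:134543445-134543529, is given with miR-379 and miR-379* marked in the same way, as the other hairpin of the 6 that was read on both arms.
Mir543: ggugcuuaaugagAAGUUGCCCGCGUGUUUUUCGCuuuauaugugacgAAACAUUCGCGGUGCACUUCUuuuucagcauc
Mir379: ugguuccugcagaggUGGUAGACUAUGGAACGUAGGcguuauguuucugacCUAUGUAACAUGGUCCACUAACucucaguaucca

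The distinction matters for the values, since the 2 arms of Mir543 behaved differently on both arrays. At the miR-543 probe none of the 9 spots passed the detection limit on either array. The vehicle spots averaged 239 ± 8.41, close to the mismatched control baseline of 241 on that array, and the alcohol spots averaged 151 ± 11.8, close to a baseline of 145. Both values are background, and no ratio is given for this probe. The miR-543* probe was detected in 9 of 9 spots on each array and is described beside miR-495. The asterisk-named arm was thus the one with signal, and the 6 names leave it out.

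Raw density means the brightness of a spot averaged over its pixels, in arbitrary units. Detection asked that 5 or more of the 9 spots of a probe lie above a limit set 3 median absolute deviations over the median of 88 mismatched control spots, which came to 278 for vehicle and 179 for alcohol. By this rule both arrays detected 150 miRNAs in common, whose median raw density was 952 for vehicle and 1951 for alcohol. The arrays differed both ways, since background was lower on the alcohol array while these 150 miRNAs were brighter there. Without normalization the median log2 ratio was 0.57 over the 150 and -0.22 over all 349 probes. Raw densities are therefore given as measured, and ratios after background correction and cyclic loess normalization. All ratios are log2 of alcohol over vehicle. As a check of the tissue, the 5 brain-enriched miRNAs looked up (miR-124, miR-9, miR-128, miR-138 and miR-218) were detected on both arrays, whereas 0 of 4 muscle, 0 of 3 blood and 0 of 6 epithelial miRNAs were. The muscle miR-133a passed on the vehicle array alone, with 5 of 9 spots. miR-122, the main liver miRNA, passed on both, with raw densities of 611 for vehicle and 286 for alcohol.

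Of the 6 probes, 5 were detected, all of them on both arrays. A detected miRNA was counted as changed if its normalized signal reached 400 on one array or the other and its fold change was 1.3 or more. Over the whole array 125 miRNAs met the signal minimum, of which 33 (26.4%) were higher and 26 (20.8%) were lower on the alcohol array. Of the 5 detected cluster miRNAs, 1 was lower (miR-134), 1 was higher (miR-411) and 3 were not counted as changed (miR-329, miR-379 and miR-495), a tally near that background. The median log2 ratio of the 5 was 0.12, beside -0.07 over the 150 miRNAs detected on both arrays. Within it, miR-134 lay far below the other 4.

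**Figure D1:**
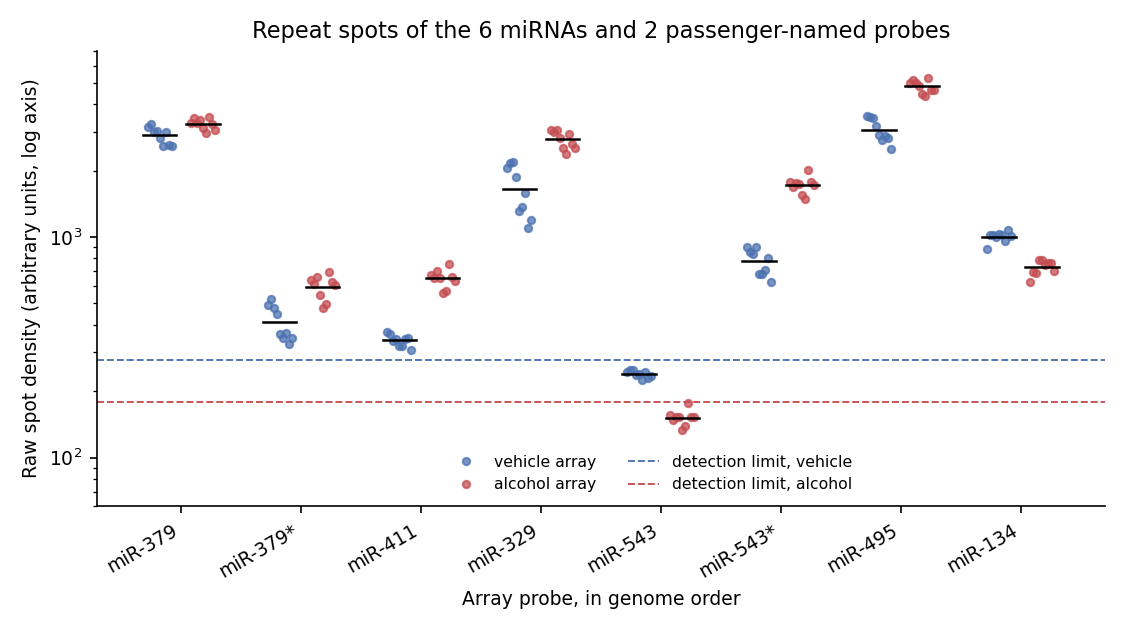
Raw spot density (arbitrary units, log axis) of the 9 repeat spots of each probe on the vehicle array (blue) and the alcohol array (red), in genome order, with bars at the means and dashed lines at the detection limits of 278 and 179. miR-134 was dimmer on the alcohol array in every spot, the miR-543 probe lay under both limits, and the remaining probes were brighter on the alcohol array.

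miR-134, the regulator of spine size, was the only one of the 5 whose raw signal was dimmer on the alcohol array. On the vehicle array its spots had a lowest, median and highest raw density of 888, 1021 and 1075, with a mean of 1006 ± 53.6 (SD, 9 spots). On the alcohol array they had 628, 749 and 787, with a mean of 729 ± 54.0. All 9 alcohol spots were below the lowest vehicle spot, so the spots did not overlap. The same held for the undetected miR-543 probe, with mismatched control baselines of 241 for vehicle and 145 for alcohol. Non-overlap of raw spots, in either direction, is therefore no mark of change by itself. Its share over all probes was not counted. Normalization took the miR-134 signal to 1252 for vehicle and 462 for alcohol, which is 36.9% of vehicle. The log2 ratio was -1.44 ± 0.10 (SD, 9 spots), that is 2.71-fold lower. Among the 150 miRNAs detected on both arrays, 1 had a lower ratio. In the deposited processed signals miR-134 stood at 1214 and 362, a log2 ratio of -1.74.

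The ratio of miR-134 was also steady over the surface of the array. The 9 spots of a probe lie in 3 bands of 3 spots, and the log2 ratio of miR-134 was -1.52 ± 0.05 in the upper, -1.37 ± 0.06 in the middle and -1.42 ± 0.11 in the lower band. In this it was unlike most probes. On the vehicle array its lower band was at 103.8% of the upper in raw density, against a median of 87.5%. Of the 150 miRNAs detected on both arrays, 148 had a lower such percentage there. The size of the miR-134 ratio depended on how the arrays were scaled. Over 12 other settings the ratio was below 0 in 12 and at least 1.3-fold lower in 11. It ranged from -1.91 with subtraction of the mismatched control baseline to -0.09 with scaling to the 6 probes for 5S rRNA. Those 5S probes had log2 ratios of raw density between -0.60 and 0.06, and scaling to them moved the median of all 150 miRNAs to 0.89. Measured from the median of the 150 in each setting, miR-134 lay between -1.86 and -0.98, below it in every setting. Of the 13 settings, the one reported included, 5 (no normalization and the scalings to 5S rRNA, spikes, 75th percentile and median) differ only by a shift common to all probes, which leaves distances and differences between miRNAs the same. They are counted once below, so that 9 distinct settings remain for such values.

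miR-379, the first miRNA of the cluster, was lower on the normalized scale but not on the raw one. Its vehicle spots had a lowest, median and highest raw density of 2592, 2991 and 3256, with a mean of 2895 ± 253. Its alcohol spots had 2967, 3287 and 3490, with a mean of 3260 ± 182. The alcohol spot was the brighter at each of the 9 positions, yet only 5 of the 9 lay above the highest vehicle spot, so the sets overlapped. This rise in raw density was small beside that of the 150 miRNAs detected on both arrays, and the normalized signal went from 3376 to 2605, 77.2% of vehicle. The log2 ratio was -0.37 ± 0.08, just short of the threshold of 0.38 in size, and the spot SD exceeds that gap. In other settings it ranged from -1.01 with each array scaled to its detected miRNAs' median to 0.53 with scaling to 5S rRNA. It was at least 1.3-fold lower in 6 of the 12 and at least 1.3-fold higher in 1. The deposited processed signals were among the 6, at 3208 for vehicle and 2309 for alcohol, a log2 ratio of -0.47. The study lists miR-379, like miR-134, among its downregulated miRNAs. Against the median of the 150 miR-379 lay between -0.48 and -0.22, below that median in the 9 distinct settings.

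The other arm of the same hairpin, read by the miR-379* probe, was dim and less even. Its vehicle spots had a median raw density of 369 with the highest at 526, and its alcohol spots a median of 614, from 477 to 697, with 7 of the 9 above the highest vehicle spot. The log2 ratio was -0.15 ± 0.37, not counted as changed, and its direction was the same in only 6 of the 12 other settings. Across the bands it went from -0.45 in the upper and -0.29 in the middle to 0.31 in the lower band. As reported, its ratio and that of miR-379 differ by less than its own spot SD, but this depended on the setting. The ratios of miR-379* and miR-379 were 0.91 and 0.21 without normalization, and 0.11 and -0.47 in the deposited processed signals. They lay closer with quantile normalization, at -0.17 and -0.31.

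miR-411, whose seed differs from that of miR-379 at 1 base, stood on the other side of 0. Its vehicle spots had a lowest, median and highest raw density of 309, 345 and 371, with a mean of 340 ± 20.5, just above the detection limit. Its alcohol spots had 557, 649 and 757, with a mean of 650 ± 61.1, and all 9 lay above the highest vehicle spot. As said for miR-134, such non-overlap is no mark of change by itself. The median raw density of the 150 miRNAs was also higher on the alcohol array. The normalized signal was 306 for vehicle and 405 for alcohol, and the log2 ratio was 0.40 ± 0.15, 1.32-fold higher. It therefore passed both thresholds by little. The signal minimum of 400 was met on the alcohol array alone, so under this rule it could be counted only as higher. The ratio was above 0 in 12 of 12 other settings, between 0.22 and 1.76, and at least 1.3-fold in 9 of them. With the signal minimum applied as well, it was no longer counted as changed in 6 of the 12. It lay above the median of the 150 in the 9 distinct settings, by 0.33 to 0.87.

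miR-329, which like miR-134 is among the cluster miRNAs needed for activity-dependent dendrite outgrowth, had a normalized ratio smaller than the spread of its spots. Its vehicle spots had a lowest, median and highest raw density of 1103, 1590 and 2198, with a mean of 1653 ± 431. Its alcohol spots had 2381, 2806 and 3058, with a mean of 2771 ± 255, all above the highest vehicle spot, which is no mark of change by itself. On the normalized scale the signal was 1910 and 2076 and the log2 ratio 0.12 ± 0.31. Its direction was the same in 8 of the 12 other settings, which ranged from -0.34 to 1.19.

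The wide error of miR-329 followed the position of the spots on the vehicle array. There its mean raw density was 2141 in the upper, 1519 in the middle and 1298 in the lower band, the lower band at 60.6% of the upper. Of the 150 miRNAs detected on both arrays, 11 had a lower such percentage on the vehicle array, where the median was 87.5%. On the alcohol array the lower band of miR-329 was at 89.2% of the upper, and the median was 99.9%. The log2 ratio accordingly read -0.19 ± 0.07 in the upper, 0.11 ± 0.20 in the middle and 0.44 ± 0.22 in the lower band, on both sides of 0. What gave rise to the gradient was not tested.

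**Figure D2:**
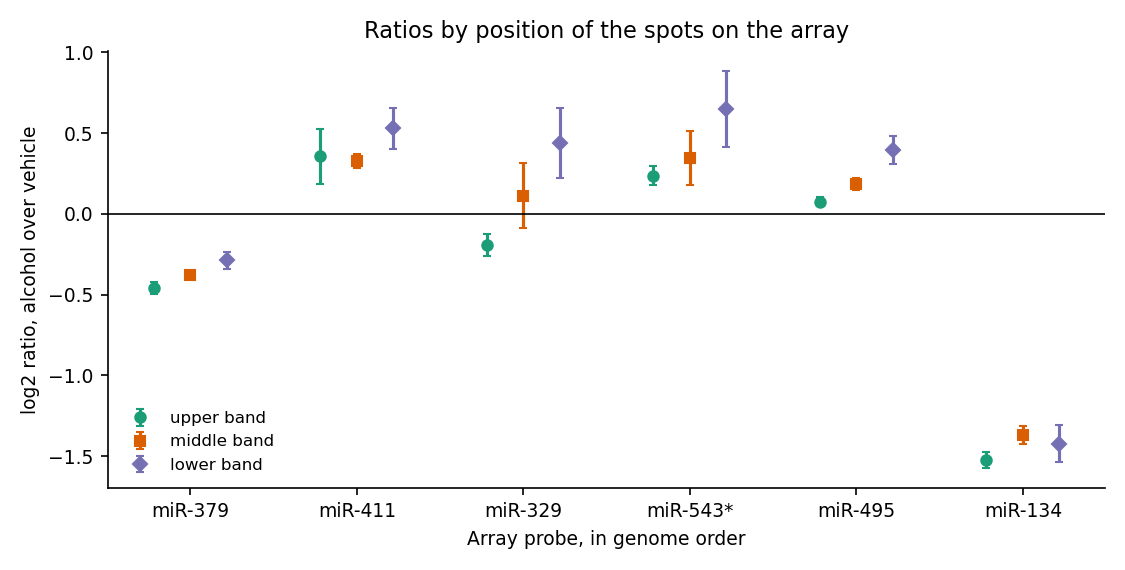
Log2 ratio of alcohol over vehicle in the upper, middle and lower band of the arrays, as the mean and SD of 3 spots, for the 5 detected miRNAs and miR-543*. miR-134 stayed between -1.52 and -1.37, whereas miR-329 went from -0.19 to 0.44 and miR-495 from 0.08 to 0.39.

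miR-495, a miRNA known to target the mRNA of the growth factor Bdnf, was brighter on the alcohol array by little more than the median of the 150 commonly detected miRNAs. Its vehicle spots had a lowest, median and highest raw density of 2501, 2897 and 3531, with a mean of 3062 ± 380. Its alcohol spots had 4386, 4862 and 5264, with a mean of 4831 ± 308, and all 9 lay above the highest vehicle spot. The normalized signal went from 3450 to 4017, a log2 ratio of 0.22 ± 0.15 that was not counted as changed. By band it was 0.08, 0.19 and 0.39 from upper to lower. The direction was the same in 10 of 12 other settings, from -0.51 to 1.03. Against the median of the 150 it lay above in the 9 distinct settings, by 0.13 to 0.38.

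The miR-543* probe, which reads miR-543-3p and is no member of the 6 by name, was the nearest in sequence to miR-495. Its vehicle spots had a lowest, median and highest raw density of 627, 807 and 902, with a mean of 778 ± 104. Its alcohol spots had 1488, 1733 and 2021, with a mean of 1725 ± 151, all above the highest vehicle spot, which again is no mark of change by itself. The normalized signal was 895 and 1190, and the log2 ratio of 0.41 ± 0.24 was 1.33-fold higher, just past the threshold. It was above 0 in 12 of 12 other settings, from 0.09 with quantile normalization to 1.68, and at least 1.3-fold in 6. The ratio of miR-495 minus that of miR-543* was -0.19 ± 0.28, within the spot SD as reported. How much of either RNA binds to the probe of the other was not tested.

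A shift common to all probes cancels in the difference between the ratios of a pair of miRNAs. The log2 ratio of miR-134 was below that of miR-379 by -1.06 ± 0.13 (difference and its spot SD). Over the 9 distinct settings this difference ran from -1.38 to -0.62. miR-134 minus miR-329 was -1.56 ± 0.33, miR-134 minus miR-411 was -1.84 ± 0.17 and miR-134 minus miR-495 was -1.66 ± 0.18. All 4 were below 0 and larger in size than their spot SD in the 9 distinct settings. That SD comes from the reported processing and was kept for the other settings, here and below.

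miR-379 had the next lowest ratio, less clearly so against miR-329 than against miR-411 and miR-495. Its ratio minus that of miR-411 was -0.78 ± 0.17, from -1.23 to -0.62, and minus that of miR-495 it was -0.59 ± 0.17, from -0.70 to -0.50. miR-329 minus miR-379 was 0.49 ± 0.32, but only 0.02 with quantile normalization. The 3 with higher ratios lay within their spot SD of each other as reported, and this depended on the setting. miR-329 minus miR-495 was -0.10 ± 0.35, from -0.58 to 0.16 (the latter in the settings that differ by a shift). miR-411 minus miR-495 was 0.19 ± 0.21, from 0.01 to 0.73, and was larger than the spot SD in 4 of the 9. miR-411 minus miR-329 was larger than its spot SD in 5 of the 9. Of the sequence pairs, miR-379 and miR-411 lay apart by more than the spot SD in all 9. miR-495 minus miR-543* did so in 1, where it was -0.65 against -0.19 ± 0.28 as reported, and that 1 stands for the 5 that differ by a shift.

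**Figure D3:**
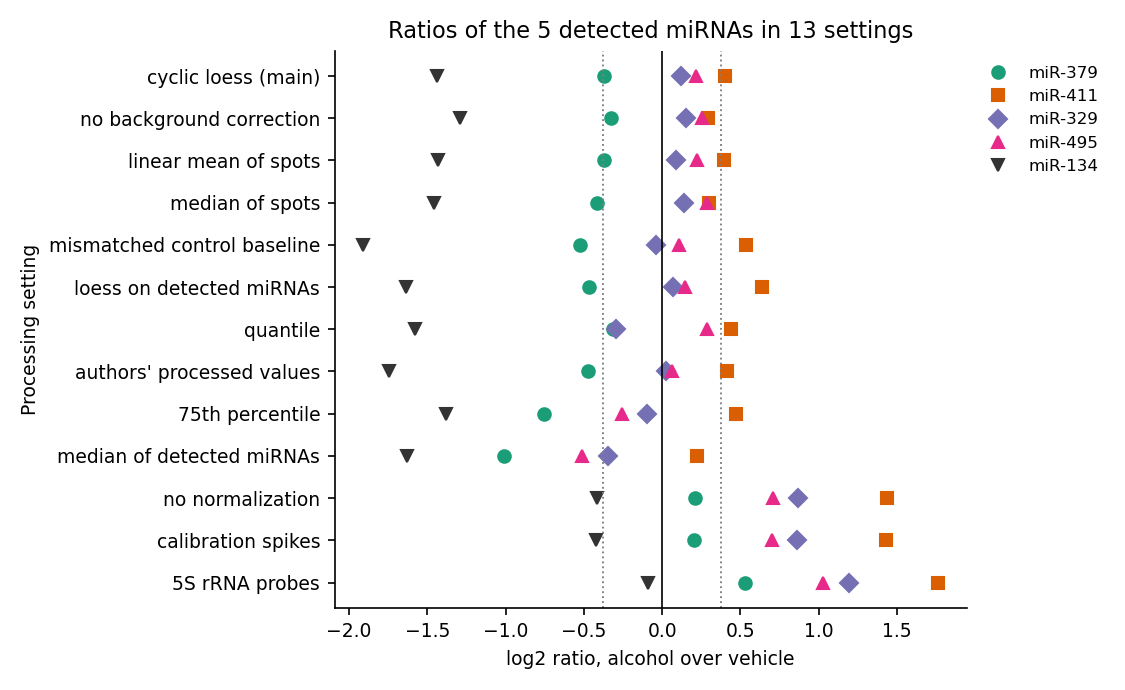
Log2 ratio of alcohol over vehicle of the 5 detected miRNAs in the reported processing (top row) and 12 other settings, with dotted lines at a 1.3-fold change in either direction. The whole group moves with the scaling, from the median of detected miRNAs to 5S rRNA probes, while miR-134 is the lowest point in every row, from -1.91 to -0.09.

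The other miRNAs of the cluster were taken by name from a list, which was set with earlier results of these data known. Outside the 6 the list found 25 probes, of which 15 were detected on both arrays, 7 on the alcohol array alone and 3 on neither. The 7 were dim, with a normalized signal of at most 191. The 15 had a median log2 ratio of 0.04 and ran from -1.05 to 0.77. Of the 10 that met the signal minimum, 2 were higher, 3 were lower and 5 were not counted as changed, near the 26.4% and 20.8% of the whole array.

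The 3 lowest ratios of the 15 were those of miR-485 (-1.05 ± 0.11), which acts at the presynapse through Sv2a, miR-382 (-0.61 ± 0.05), the miRNA this study went on to examine, and miR-539 (-0.49 ± 0.07). The 3 highest were those of miR-376b-3p (0.77 ± 0.45), miR-154 (0.49 ± 0.26) and miR-410 (0.36 ± 0.26). Each of the 3 highest came with a spot SD well above those of the 3 lowest, so their order is not resolved.

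**Figure D4:**
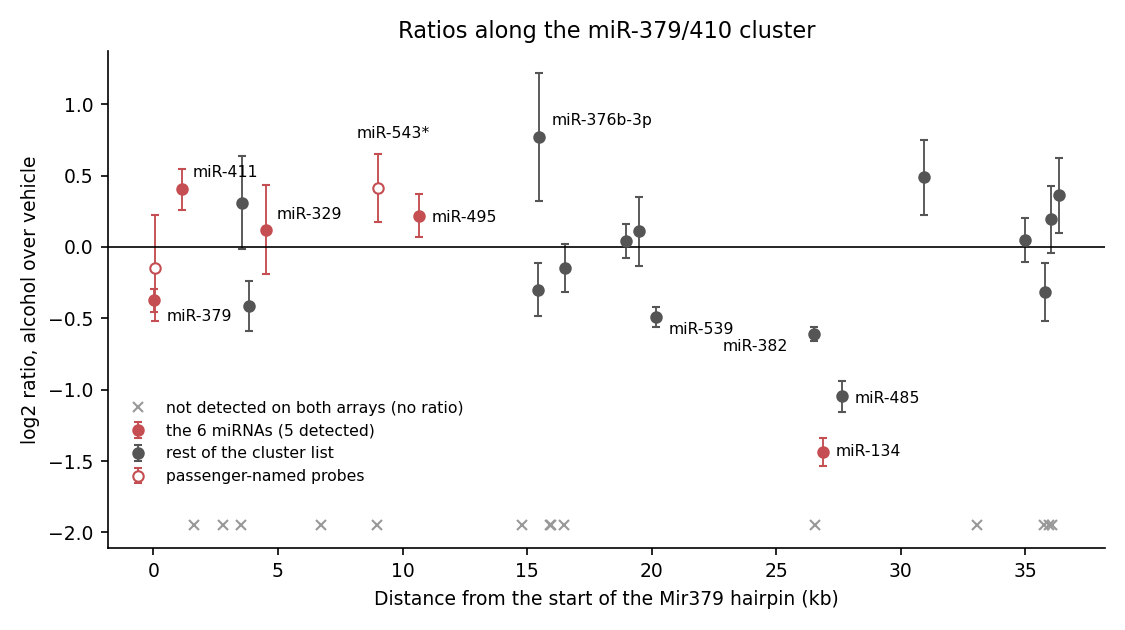
Log2 ratio of alcohol over vehicle (mean and SD over 9 spots) against distance from the start of the Mir379 hairpin in kb, for the 5 detected miRNAs (red), the rest of the cluster list (grey) and the 2 passenger-named probes (open), with crosses for probes without a ratio. miR-382, miR-134 and miR-485, between 26.5 and 27.6 kb, hold the 3 lowest of the 20 ratios, and miRNAs on either side lie on both sides of 0.

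Along the genome miR-134 stood between the other low ratios. This pattern was noticed after the values were seen and is a description. Of the 20 miRNAs of the list with a ratio, members included, the 3 lowest were miR-134, miR-485 and miR-382, which lie within 1.12 kb at 26.5 to 27.6 kb from the start of Mir379. The next one along with a ratio on either side, miR-539 at 20.2 kb and miR-154 at 30.9 kb, had -0.49 and 0.49. miR-134 was the lowest of the 20 in the 9 distinct settings, and the same 3 were the lowest in all but quantile normalization, where miR-382 was the fourth. With scaling to 5S rRNA miR-485 and miR-382 read 0.24 and 0.20, above 0, while miR-134 stayed at -0.09. The study also measured miR-382 by qRT-PCR, which does not use the array scaling, and reports it lower in alcohol-treated rats.

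Base composition went with the ratio in part. miR-134 has a GC content of 59.1% and miR-485 one of 54.5%, whereas miR-495 has 36.4% and miR-376b-3p 38.1%. Others go against this: miR-539 has 40.9% at a ratio of -0.49 and miR-323 has 52.4% at 0.31. miR-382 and miR-154 both have 50%, at ratios of -0.61 and 0.49. Across the 20 miRNAs GC content and the ratio correlated at -0.55 (Pearson) and -0.44 (Spearman), and it was -0.44 and -0.39 without normalization. The 20 share both arrays and one hybridization each, and the part of base composition in the low ratio of miR-134 was not tested.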

How the data were processed

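Each sample is 1 array of 3968 spots, with 9 spots for each of 349 rat miRNA probes. The authors deposited the intensity of each spot, a mean pixel density without background subtraction, and a processed signal per probe after background subtraction and a cyclic normalization, whose settings are not given in the sources used here. The spot files hold a foreground column alone. Intensities were background-corrected (normexp, offset 50), averaged as log2 over spots and normalized by cyclic loess (span 0.7, 3 iterations) with limma 3.58.1 under R 4.3.3, and summarized in Python 3.11.15 (numpy 2.4.6, pandas 2.3.3). The median spot CV of raw density was 9.10% for vehicle and 6.38% for alcohol. Precision is limited by having 1 array per group. The steps were also run on simulated data with 2-fold changes in bright probes and no gradient over the array. That run does not test calls near 1.3-fold, dim probes or the effect of spot position.

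The miRNAs and lists were chosen with earlier results of these data known, and the detection rule was set after values had been seen. Named miRNAs were the 6, their asterisk-named probes, the 3 highest and 3 lowest detected others of the cluster list, miR-382 and the nearest target sequences. Names in the paragraphs on position and base composition were added after their values were seen. The 12 other settings changed the scaling, background, spot summary or source of values, and other thresholds were tried for the counts. Hairpins and positions came from RefSeq (GRCr8), and target sequences from the deposited array data. The t-test named for these arrays was not used, since spots are not animals.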

Additional observations from a re-analysis of the deposited data

How the results depend on the processing

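The scaling between the arrays moved the values most. The median log2 ratio of the 6 probes was 0.12 (the undetected miR-543 included). It was 0.78 with 5S rRNA scaling, 0.46 without normalization, 0.45 with calibration spikes, -0.0279 with the mismatched control baseline, -0.0731 with quantile normalization, -0.51 with 75th percentile scaling and -0.76 with scaling to the median of detected miRNAs. In the 5 settings that differ by a shift, the background ratio of miR-543, from -1.67 to -0.13, pulled this median down. Among the 5 detected miRNAs the middle ratio there was that of miR-495. It was 1.03 with 5S rRNA scaling, 0.71 without normalization, 0.70 with spikes, -0.26 with the 75th percentile and -0.51 with the median. With quantile normalization the middle ratio was that of miR-329, at -0.29. For the rest of the cluster list the median of 0.04 became 1.12 with 5S rRNA scaling, 0.80 without normalization, 0.79 with spikes, -0.17 with the 75th percentile and -0.42 with the median of detected miRNAs. The median of all 150 detected in common moved with them, from -0.07 to 0.89, 0.57, 0.56, -0.40 and -0.65 in the same 5 settings. The count of members at least 1.3-fold lower, 1 as reported, was 0 with 5S rRNA scaling, 2 with the 75th percentile, the deposited processed signals, loess on detected miRNAs, the median of spots and the mismatched control baseline, and 3 with the median of detected miRNAs. The count at least 1.3-fold higher, 1 as reported, was 4 with 5S rRNA scaling, 3 with spikes and without normalization, and 0 with the processed signals, the median of detected miRNAs, the median of spots, the mismatched control baseline, no background correction, quantile normalization and thresholds of 1.5-fold and 2-fold. The causes were not tested. The directions of miR-134 and miR-411 were kept in all 12 other settings.

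No paired analysis was possible because vehicle and alcohol have 1 array each, which also leaves no replicate to drop. miR-411 on the vehicle array lay near background, which limits its ratio, and the miR-543 probe gave none.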
